A study of Bos grunniens with 18 samples.

Results

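Beta-defensins are small secreted peptides with conserved cysteines joined by disulphide bonds. They kill or bind microbes, and in the epididymis, the duct where sperm mature after leaving the testis, many are secreted by the epithelium in a segmented way and some coat the sperm surface. N6-methyladenosine (m6A) is a methylated form of adenosine found within messenger RNA, and it bears on the stability and translation of transcripts. The genes described here are those with the symbols DEFB112, DEFB116, DEFB118, DEFB119, DEFB123 and DEFB129, chosen by symbol because peaks of m6A enrichment had been listed for them. They comprise 7 gene identifiers of 18467 in the expression table, since DEFB118 names 2 identifiers. These are kept apart by the last 5 digits of their Ensembl identifiers, as DEFB118 (15413) and DEFB118 (15474).

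The samples came from the epididymis of healthy male yaks (Bos grunniens) that were 4 years old. No treatment or genotype is labelled. Head (caput), body (corpus) and tail (cauda) of the duct were separated, and each region gave 3 libraries of RNA enriched with an m6A antibody (RIP) and 3 of unenriched RNA (input), 18 in all. The labels name 6 animals without saying which gave which library, so the spread between libraries may be technical. In bulk tissue, fewer cells of a type and less RNA per cell cannot be told apart.

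Of these 7 identifiers, 6 lay on chromosome 12, where their peaks ran from 54660116 to 54969483 (309.4 kb) with 0 peaks of other genes between them. DEFB112 lay apart, on chromosome 24. Coordinates count from 1. The sources used here do not name their genome build. The peaks of DEFB129, DEFB116 and DEFB119 were on the minus strand, and those of both DEFB118 genes, DEFB123 and DEFB112 on the plus strand. A peak is an enriched stretch of RNA that can skip introns, so its span on the genome can exceed its length.

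DEFB116 had the longest span. Its peak ran over 43949 bases (chromosome 12, 54827569 to 54871517) but was 241 bases long, leaving 43708 bases of gaps. The peak of DEFB118 (15413) on the other strand, from 54867340 to 54870172 in the comparison of corpus and caput, lay wholly inside that span. A second pair also met head-on. In the same comparison, the peak of DEFB118 (15474) from 54884299 to 54893547 and the DEFB119 peak from 54893335 to 54893783 overlapped by 213 bases on opposite strands. In the comparison of cauda and corpus the called peaks of these 2 genes overlapped by 14 bases. The labels' protocol marks strand with dUTP, but the sources used here do not say whether reads were counted by strand. Overlapping peaks on opposite strands therefore cannot be told apart in these values.

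Transcript levels come from the 9 input libraries in FPKM (fragments scaled to transcript length and library size), a scale on which genes of different length can be compared. The column names mark these libraries as input under codes that begin with EA, EB or EC. The codes match no label, so the region of each library is unknown, and no regions were compared. Between 22600000 and 28200000 fragments per library fell on genes, as recovered from the steps of the FPKM values. Of the 19 identifiers of epididymal epithelium markers, 12 had a median of at least 1 FPKM. WFDC2 (5541 to 11307 FPKM) and Lcn5 (1951 to 113865 FPKM) were high in all 9 libraries, whereas Lcn10 had a median of 0 and LCN9 of 0.0731 FPKM. The library coded EC2_2 stood apart in several marker sums. Its summed level of epididymal epithelium markers (19 identifiers) was 40752 FPKM against 51949 to 167563 in the other 8 libraries. Its sperm and spermatid markers (6) summed to 2159 against 3.36 to 1136, its leukocyte markers (5) to 79.2 against 30.1 to 50.3, and its smooth muscle markers (5) to 7365 against 3632 to 6646. Its endothelium markers (3) summed to 50, within the 20.7 to 51.1 of the other 8 libraries. By single markers, EC2_2 was the lowest library for 9 of the 19 epithelium markers and the highest for 2. Where several libraries tied at 0, the first in column order was counted as the lowest. Erythrocyte markers stayed low, at 0.729 to 2.71 over all 9 libraries. The part of these differences in the levels below was not tested.

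DEFB129 was the most abundant of the 7 by its median, although DEFB116 was higher in each of the EA libraries. Its FPKM were 833, 893 and 1297 in the libraries coded EA, 6114, 5621 and 6153 in those coded EB, and 163, 1712 and 2340 in those coded EC. The 3 EB libraries lay above all others, and EC2_2 was the lowest. The highest value was 37.8 times the lowest, and 7.38 times without EC2_2. By its median of 1712 FPKM this gene ranked 1 of the 38 identifiers of the beta-defensin family. The family is taken here by symbol alone, as those that start with DEFB in any letter case, and Spag11.

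DEFB116 followed at a median of 904 FPKM. It had 1017, 2032 and 1930 FPKM in the EA libraries, 1000, 904 and 829 in the EB libraries, and 48.6, 336 and 231 in the EC libraries. These 3 sets of libraries did not overlap, with EA highest and EC lowest, although EA2_1 and EB1_3 lay close together. The highest value was 41.8 times the lowest, and 8.78 times without EC2_2.

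DEFB112 varied least. Its levels were 290, 262 and 308 FPKM (EA), 304, 164 and 155 FPKM (EB) and 137, 429 and 257 FPKM (EC). The sets overlapped throughout, and the highest library was 3.14 times the lowest.

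DEFB118 (15474), whose symbol is that of a sperm-binding epididymal defensin, had 308, 221 and 170 FPKM in the EA libraries. It had 43.8, 7.76 and 3.56 FPKM in the EB libraries and 0, 0.889 and 0.444 FPKM in the EC libraries. The 3 sets did not overlap. The value of 0 in EC2_2 stands for 0 fragments, and 3 fragments there would equal 0.112 FPKM, so the highest library was at least 2757-fold higher than this limit. Without EC2_2 the highest value was 694 times the lowest. The fragment counts ran from 7637 in EA2_1 down to 23 in EC3_2, 12 in EC4_1 and 0 in EC2_2.

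DEFB119 had the widest range of the genes with a value above 0 in every library. It stood at 43.9, 731 and 622 FPKM in the EA libraries, at 0.868, 0.221 and 0.299 FPKM in the EB libraries, and at 0.0901, 0.323 and 0.155 FPKM in the EC libraries. The EA libraries lay above all others, and the EB and EC libraries overlapped. The highest level was 8116 times the lowest (4729 times without EC2_2), and rested on 100004 fragments in EA3_1 against 11 in EC2_2. Within the EA libraries alone, EA2_1 was far below the other 2.

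The remaining pair were weakly expressed. DEFB123, a peptide known to bind bacterial lipopolysaccharide, ranged from 0 in EB2_1 over a median of 2.27 to 5.59 FPKM in EA3_1, with 0 to 195 fragments per library. The 0 allows up to 0.103 FPKM, and the highest level was at least 54.1-fold above this limit. DEFB118 (15413) ranged from 0.0854 over a median of 1.24 to 28 FPKM, with 2 to 734 fragments per library. For neither gene did any set of libraries lie wholly above or below the rest. The share of all genes whose libraries separate by code is not given here, so the separations above are not shown to be particular to these genes.

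**Figure D1:**
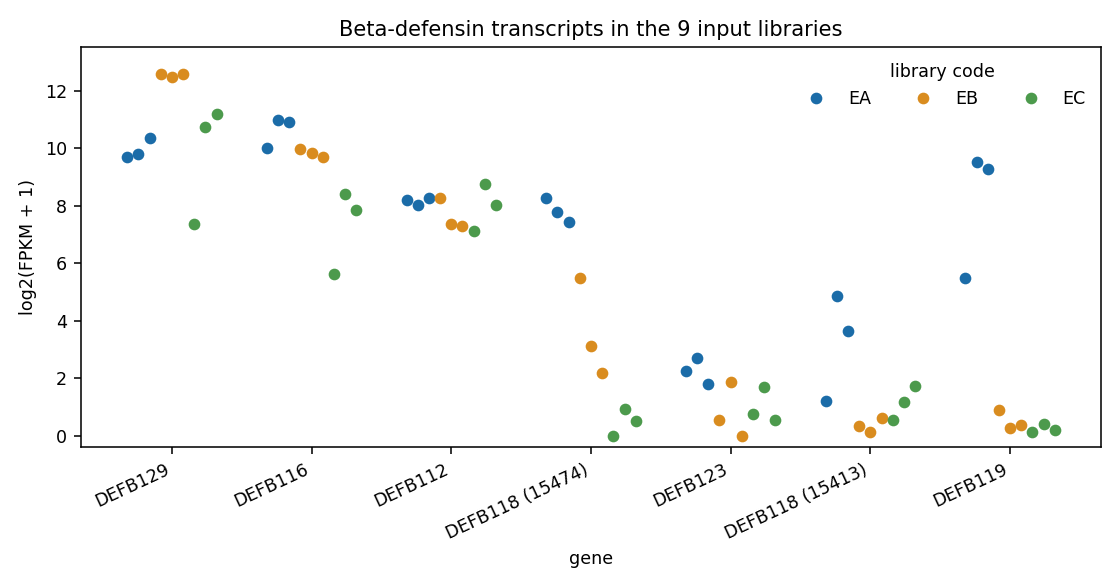
Level of each of the 7 genes in each of the 9 input libraries; the vertical axis is log2(FPKM + 1), a point is 1 library, and colours mark the code in its column name. DEFB129 is highest in the EB libraries, whereas DEFB116, DEFB118 (15474) and DEFB119 are highest in the EA libraries.

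In order of median level the genes ran DEFB129, DEFB116, DEFB112, DEFB118 (15474), DEFB123, DEFB118 (15413) and DEFB119, but the ranges of neighbours in this order overlapped in every case. EC2_2 was the lowest library for 5 of the 7, namely DEFB112, DEFB116, DEFB118 (15474), DEFB119 and DEFB129. It was also the lowest for 11 of the 31 other identifiers of the family and 9 of the 19 epithelium markers. In these 2 counts, a tie for the lowest level went to the first library in column order. The share over all genes is not given here. The summed level of the 7 was 350 FPKM in EC2_2 and 2481 to 7463 FPKM in the other 8 libraries. Across the 9 libraries, which share the 3 codes, the Pearson correlation of log2(FPKM + 1) was 0.88 between DEFB119 and DEFB118 (15413), 0.84 between DEFB119 and DEFB118 (15474), and 0.82 between DEFB118 (15474) and DEFB116. DEFB129 had 0.50 with DEFB116 and between -0.31 and 0.10 with the other 5.

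The genes whose pattern was most like each member were searched among 14005 genes by the same correlation over the 9 libraries. The nearest to DEFB118 (15474) were Defb36 (0.984), a further beta-defensin, ARSI (0.981) and EPPIN (0.98), a protease inhibitor that binds sperm. DEFB119 was nearest to BTLA (0.999), NXPE2 (0.996) and DEFB108B (0.996). Each of these 3 had a lowest level of 0, and their highest levels were 6.84, 25.9 and 9.34 FPKM. DEFB119 itself was at most 0.868 FPKM outside the EA libraries, so many of the compared values were near 0. DEFB118 (15413) had TXNDC12, DEFB128 and EBF4, each at 0.965, and DEFB129 had ELF5, an epithelial transcription factor, at 0.963, GNG10 at 0.958 and Gon4l at 0.955. The likeness of DEFB116 was highest to Mpp2 (0.98), ALG12 (0.977) and ERO1B (0.970), the last 2 being enzymes of the endoplasmic reticulum. The lowest top values were those of DEFB112, with BTD (0.913), STK26 (0.876) and HSPD1 (0.873), and of DEFB123, with DOK3 (0.935), ATP6AP1L (0.930) and CASQ1 (0.923). With 9 points in 3 sets such values describe these libraries only, and by Spearman's correlation 2 of these 21 names were found again.

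The other 31 identifiers of the family set these levels in context. Their summed level ran from 5942 to 38745 FPKM. It exceeded that of the 7 genes in every library but EB1_4 (5942 against 6700 FPKM) and EB2_1 (7056 against 7141 FPKM). Of these 31 identifiers, 22 had a median of at least 1 FPKM, and of those 22 a single one, DEFB104A (ENSBGRG00000006999), carried a peak in any comparison table (4.55%). Over all genes at that level, 8711 of 12302 carried one (70.8%). DEFB132 had a median of 1593 FPKM and DEFB105A of 1407 FPKM, between those of DEFB129 and DEFB116, without a peak in these tables. Defb22 reached 25705 FPKM and Spag11 13231 FPKM in 1 library each, also without one. DEFB119, at a median of 0.323 FPKM but 43.9 to 731 FPKM in the EA libraries, carried up to 5 peaks in a comparison. The 7 were chosen for having peaks, so their own share is not a result. That choice also took genes with a peak out of the other 31, so the 4.55% is no result about the family. Of all 38 identifiers of the family at any level, 8 had a peak, beside 9442 of all 18467 identifiers.

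**Figure D2:**
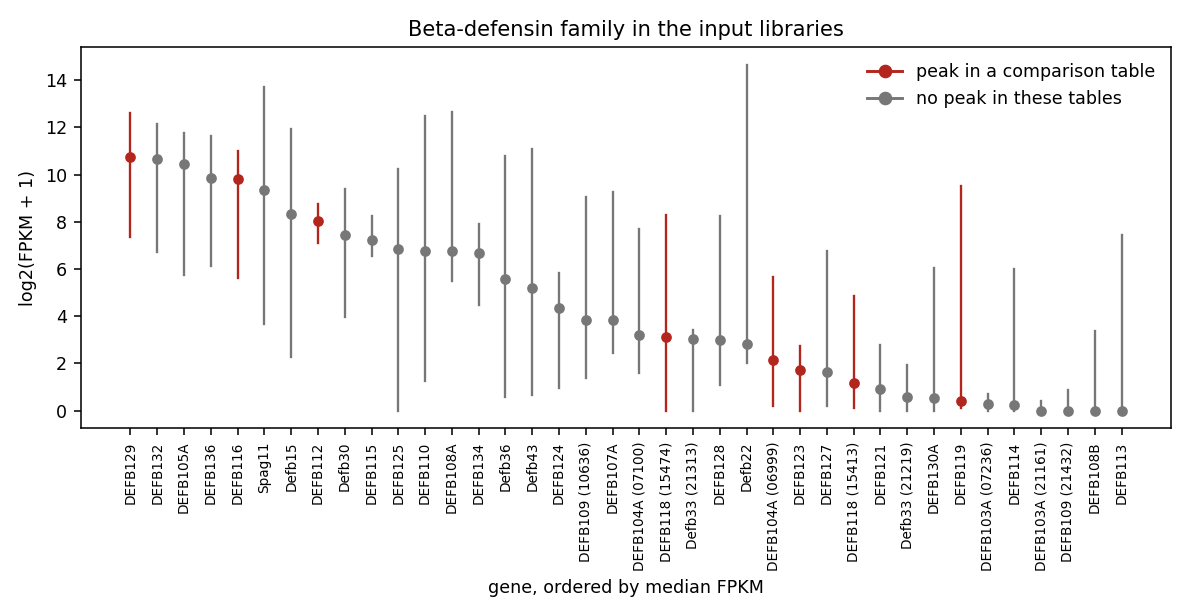
Level of the 38 beta-defensin family identifiers in the 9 input libraries on a log2(FPKM + 1) axis; points are medians and lines run from the lowest to the highest library. The 8 red entries have a peak in a comparison table, and they stand from rank 1 (DEFB129) to rank 32 (DEFB119).

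Each region has 1 list of peaks with candidate adenosines, positions that the authors scored for m6A from 0 to 1 and classed as m6A sites from a combined score of 0.557. A list peak was given to a gene when it shared a start or end with a peak of that gene, or, where no gene did, when it overlapped one. A position had the same score in every list, so the score does not measure a region's methylation. Over the 3 lists the genes held 78 distinct candidates, of which 11 were classed as sites (14.1%, 95% Wilson interval 8.06 to 23.5, counting error only). Over all candidates the share was 18.7%, within that interval. The median score was 0.440 in both.

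The peak spans of the 2 genes listed in all 3 regions held most of the sites. DEFB112 had the same 6 candidates in caput, corpus and cauda, in 1 peak of chromosome 24 from 12409195 to 12409438. Its 3 classed positions were 12409308 (score 0.590), 12409346 (0.669) and 12409428 (0.616). DEFB116 had the same 26 candidates in all 3 lists, 6 of them classed. They included the single very high confidence position of the 7 genes, at 54866986 (0.693), and a high confidence one at 54867277 (0.672).

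The candidates of the DEFB116 peak fell in 3 stretches. The first held 3 candidates within 111 bases starting at base 69 of the span from 54827521, 0 of them classed. The next, from base 39238, held 13 candidates within 550 bases, 2 of them classed. This stretch is wider than the length of the peak, 241 or 289 bases in the comparisons. Some of its candidates may therefore lie in the gaps of the peak, and the lists give no exon blocks to tell which. The last, from base 42419, held 10 candidates within 232 bases, 4 of them classed. All 10 candidates of the last stretch also lay inside the peak of DEFB118 (15413) on the opposite strand, and an adenosine occupies 1 strand only. The lists carry no strand, so these 10 positions cannot be told apart between the 2 genes.

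**Figure D3:**
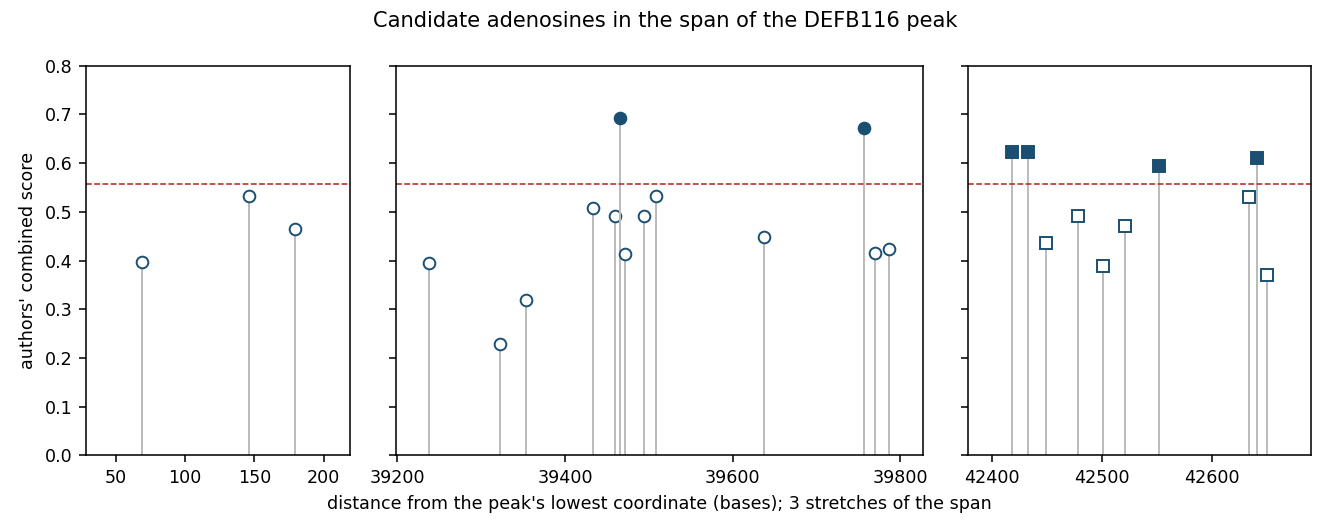
Combined score (vertical axis, no unit) of the 26 candidates in the span of the DEFB116 peak against distance in bases from the peak's lowest coordinate, in 3 panels that leave out the gaps. Filled symbols are classed sites above the dashed line at 0.557, and squares are the 10 positions shared with DEFB118 (15413).

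The other 5 identifiers had no peak of their own in the cauda list. DEFB118 (15413) had 10 candidates in the caput list alone, the shared ones just described. DEFB118 (15474) had 13 candidates in 2 peaks of the caput list and 4 in 1 peak of the corpus list. DEFB119 had 29 in 4 caput peaks and 22 in 4 corpus peaks. Its 2 classed positions, 54893398 (0.572) and 54894774 (0.557), were of low confidence, and the first was also the 1 classed position of DEFB118 (15474). These 2 genes shared 4 candidates. DEFB129 had 5 candidates in caput and corpus, with a highest score of 0.427, and DEFB123 had 1, with 0.526. Thus 0 positions were classed as m6A sites in the peaks of DEFB129 and DEFB123. With 5 candidates and 1, these genes hold too few to be set apart from the share of 18.7% over all candidates.

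By this rule 5 of the 7 identifiers were listed in a region but not in the cauda. Of all 8715 genes listed in some region, 1521 were (17.5%). Counting any overlap in place of a shared end, DEFB118 (15413) was listed in the cauda through the DEFB116 span, leaving 4 of 7 against 14% of all genes. A missing listing is not a measured difference. The peak of DEFB129 was compared with the cauda in 2 tables, with folds of 1.02 and 1.05 in the authors' deposited table, although the cauda list lacks it.

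**Figure D4:**
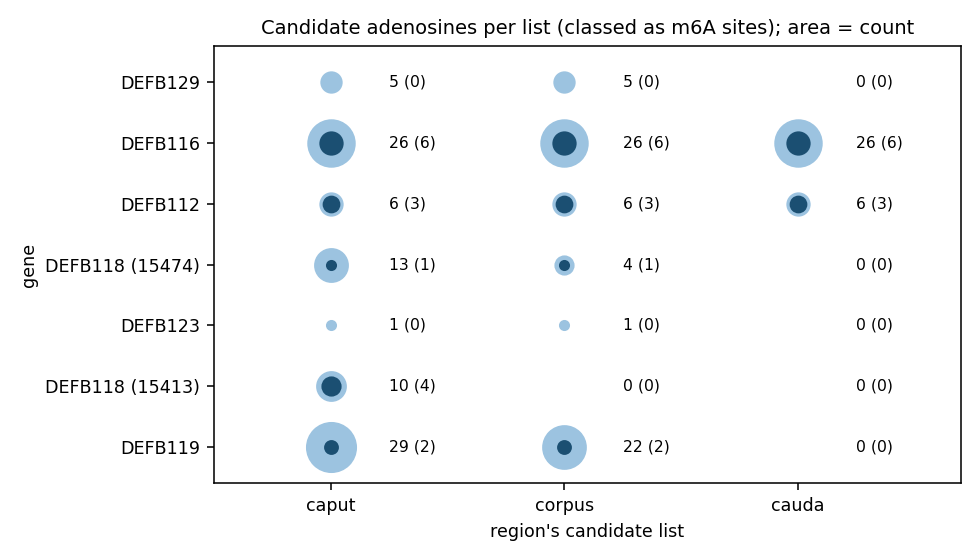
Candidate adenosines of each gene (rows) in the list of each region (columns); the area of the pale circle is the number of candidates and that of the dark circle the number classed as m6A sites, with both numbers printed beside it. List peaks are given to genes by shared ends. By this rule DEFB112 and DEFB116 keep 6 and 26 candidates in every list, and the other 5 have 0 in the cauda. Counting any overlap, DEFB118 (15413) has 26 in the cauda, through the DEFB116 span.

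The authors also compared the peaks of each pair of regions, giving a fold (first-named over second-named region), a p-value and an adjusted p-value per peak. The tables hold no library's own values, and so the spread between replicates cannot be shown. The sources used here do not say whether the folds are relative to the input. A peak is called when the adjusted p is under 0.05. The 3 comparisons share libraries in pairs and are not independent. Peak bounds differed between tables, and the 7 genes had 12, 6 and 8 peaks in the comparisons of corpus with caput, cauda with caput and cauda with corpus.

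DEFB118 (15474) carried the peaks that were lower in the cauda than in the caput. The peak from 54883274 to 54883819 had a fold of 0.337 (log2 -1.57, adjusted p = 0.0066) and the peak from 54884299 to 54893547 a fold of 0.574 (log2 -0.80, adjusted p = 0.0048) in the authors' deposited table. Their log2 folds stood at the 0.21 and 2.05 percentiles of all 13826 peaks. These were the 2 called among 6 peaks, beside 2.27% of all peaks called, 0.861% lower and 1.41% higher. They belonged to the same gene and are not independent results. At an unadjusted p under 0.05 there were 5 of 6, 2 lower and 3 higher in the cauda, beside 17.2% of all peaks. DEFB123 (0.698, adjusted p = 0.47) was not called in the authors' deposited table. Nor were DEFB118 (15413) (1.3, adjusted p = 0.15), DEFB116 (1.15, adjusted p = 0.25) and DEFB129 (1.02, adjusted p = 0.23) in the authors' deposited table. Over the 6 peaks the median log2 fold was -0.25, against 0.043 for all peaks. DEFB119 and DEFB112 had no peak in this table.

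Between the cauda and the corpus, 3 of 8 peaks were called, all lower in the cauda, beside 1.96% of all 13917 peaks, 0.719% lower and 1.24% higher. The called peaks belonged to DEFB119 and DEFB118 (15474), neighbours with overlapping peaks, so they are not independent results. At an unadjusted p under 0.05 there were 5 of 8, 3 lower and 2 higher in the cauda, beside 16.4% of all peaks. DEFB119 had a fold of 0.544 for the peak from 54893534 to 54893783 (log2 -0.88, adjusted p = 0.0013) in the authors' deposited table. Its peak from 54895229 to 54895751 had a fold of 0.719 in the authors' deposited table (log2 -0.47, adjusted p = 3.9e-04). The called peak of DEFB118 (15474), from 54893355 to 54893547, had a fold of 0.585 (log2 -0.77, adjusted p = 0.023) in the authors' deposited table. This is the DEFB118 peak that meets the first DEFB119 peak on the other strand. A further DEFB119 peak, from 54894930 to 54895129, had a fold of 1.78 (log2 0.83, adjusted p = 0.84) and stood at the 97.3 percentile, and the last, from 54905667 to 54907014, had 0.901 (adjusted p = 0.83) in the authors' deposited table. In the authors' deposited table DEFB116 (1.2), DEFB129 (1.05) and DEFB112 (1.04) had adjusted p between 0.21 and 0.83 and were not called. The median log2 fold of the 8 peaks was -0.048, against 0.046 for all peaks.

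Between the corpus and the caput, 0 of 12 peaks were called by the authors' test, against 2.98% of all 14061 peaks, 1.86% lower and 1.12% higher. At an unadjusted p under 0.05 there were 2, beside 16.4% of all peaks. These were DEFB118 (15413), with a fold of 0.797 (p = 0.0023, adjusted p = 0.076), and the DEFB118 (15474) peak from 54883274, with 1.37 (p = 0.014, adjusted p = 0.2), in the authors' deposited table. In the authors' deposited table, folds of the 5 DEFB119 peaks ran from 0.846 to 1.11. DEFB129 (0.968), DEFB116 (0.953), DEFB112 (0.964) and DEFB123 (1.05) lay near equal signal in the authors' deposited table. The median log2 fold was 0.079, against -0.02 for all peaks.

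**Figure D5:**
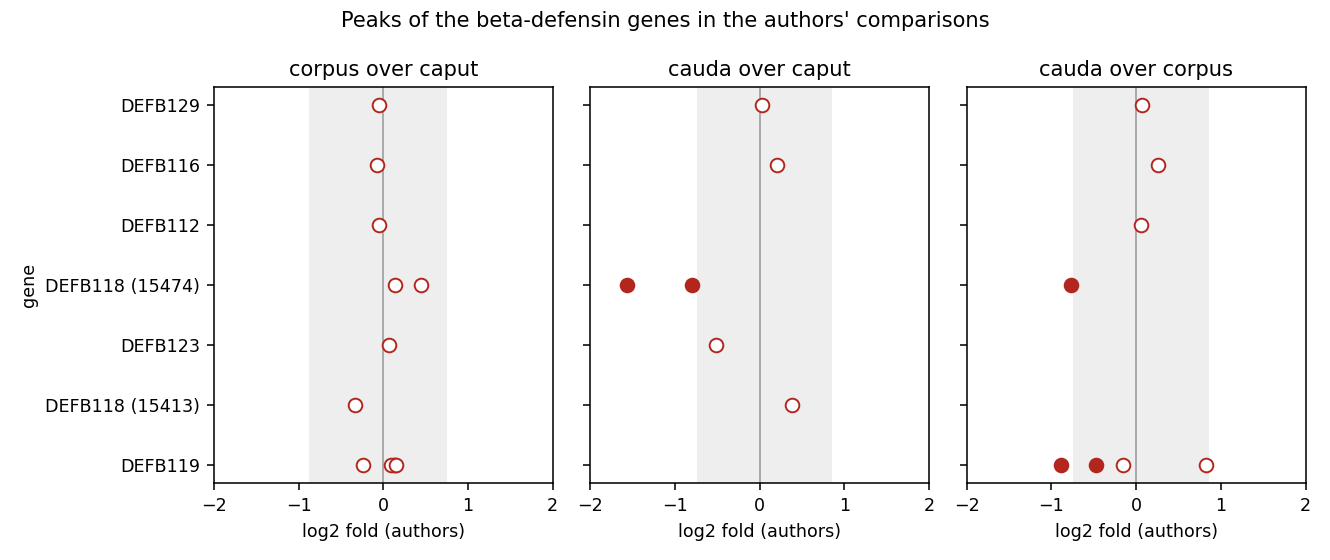
The authors' log2 fold (horizontal axis) of each peak of the 7 genes in each comparison; filled points have an adjusted p under 0.05, and the grey band holds the central share of all peaks (its edges are the percentiles 2.5 and 97.5). Filled points appear in the comparisons with the cauda, for DEFB118 (15474) and DEFB119, at log2 folds from -1.57 to -0.47.

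A small fold could have a low p and a larger one a high p. DEFB129, whose peak had the same bounds in all 3 tables, had a fold of 1.02 with an unadjusted p of 0.017 in the comparison of cauda and caput, whereas the DEFB119 peak with a fold of 1.78 had 0.46 for cauda over corpus, in the authors' deposited table. For DEFB129 the log2 folds of corpus over caput (-0.046) and cauda over corpus (0.074) sum to 0.028, the value listed for cauda over caput in the authors' deposited table. Of the 1836 peaks with the same bounds in all 3 tables, 53.9% met this within 0.01.

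Related genes gave few peaks to set beside these. DEFB104A, the other family member with a peak, had a log2 fold of 0.03 for cauda over corpus (adjusted p = 0.88) in the authors' deposited table. In the list of other antimicrobial and protease inhibitor genes of the duct, 28 identifiers were found for the 37 entries, and 2 had peaks, 2 of the 18 with a median of at least 1 FPKM (11.1%). Both carry the symbol EPPIN. Their 3 peaks had log2 folds of -0.17 (corpus over caput), -0.04 and -0.08 (cauda over corpus), and 0 were called in the authors' deposited table, with 1 of the 3 at an unadjusted p under 0.05.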

How the data were processed

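Trimmomatic, HISAT2 and deepTools are named, without versions, in the submitters' processing notes. The sources used here do not give the peak caller, site predictor, differential test, read counter or genome build. The authors deposited FPKM values per gene for 9 input columns, and these column names identify input libraries but no region. The deposited comparison tables give per peak a p-value, an adjusted p-value, a ratio (fold) and a log2 fold, per their headers. The candidate lists give the authors' score and class per adenosine, per the file headers. Repeated positions were counted once with their highest score.

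FPKM values of the 9 libraries were whole multiples (within 0.02) of a common step in 16707 of the 16716 genes with a value in at least 4 libraries, which gave fragment counts. Correlations used log2(FPKM + 1) over genes reaching 1 FPKM. Overlap needed at least 1 base. Python 3.11.15, pandas 2.3.3 and statsmodels 0.14.6 were used, and functions were tested on simulated data. No region was tested here beyond the authors' own test, and Dixon's test for a library far from the others was run on the input levels of the 7 genes. The rule for named genes took every identifier and peak of the 6 symbols and the 3 genes most like each. Members and lists were chosen with earlier results of these data known. The RefSeq table used held 2 of the 6 symbols, DEFB116 and DEFB129, and no sequence, so none is shown.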

Additional observations from a re-analysis of the deposited data

Results flagged for a closer look

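DEFB118 (15413) had its highest input level, 28 FPKM, in the library coded EA3_1, far from the next value of 11.4 FPKM. The gap was 0.596 of the whole range over the 9 input libraries. Chance alone sets apart about 1 in 20 groups where values are normally distributed, which was not examined for these values on the FPKM scale. The 7 genes were examined at both ends, 14 sides in all. The next value was that of EA4_1, a library with the same first letters in its code, and the 9 libraries were treated as 1 group. EA3_1 was also the highest library for DEFB116, DEFB119 and DEFB123, for 15 of the 31 other identifiers of the family and for 11 of the 19 epithelium markers. The part of these in the high value was not tested.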

How the results depend on the processing

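The counts of called peaks were 0, 2 and 3 (corpus against caput, cauda against caput, cauda against corpus), the same with the Benjamini-Hochberg adjustment recomputed over all peaks, and 0, 2 and 2 at an adjusted p under 0.01. At an unadjusted p under 0.05 the counts were 2 for corpus over caput, and 5 in each comparison with the cauda. Each of these counts held both higher and lower peaks. Requiring a fold of at least 2 as well left 1 peak for cauda over caput and 0 for cauda over corpus. Distinct candidates overlapping the genes' peaks numbered 76 in the caput, 60 in the corpus and 32 in the cauda. Of these 11, 11 and 9 were classed, and every line as deposited gave 126 in the caput. The lists give no exon blocks, so the planned count inside blocks was made for unspliced peaks alone, with 31, 31 and 13. Positions inside the span of a peak of the comparison tables, counted after seeing the data, were 69, 60 and 32. Of the 21 genes named as most like a member, 2 were named by Spearman's correlation, 15 with a pseudocount of 0.1 and 21 without the filter. No paired analysis was possible because neither the comparison tables nor the input columns carry the replicate numbers. The number of fragments limits DEFB123, DEFB118 (15413) and, outside the EA libraries, DEFB119, as well as DEFB118 (15474) in the EC libraries.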

Other observations

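Within the stretch of chromosome 12 that holds the beta-defensin peaks, the corpus list had 1 further peak, from 54719708 to 54720340. It held 1 candidate, with a score of 0.298 and not classed as an m6A site, and overlapped 0 peaks of the comparison tables.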
